A study of Mus musculus with 16 samples.

Results

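The genes described are 6 markers of alternative activation of macrophages: the resistin-like gene Retnla, the chitinase-like genes Chil1, Chil3 and Chil4, Arg1 and Mrc1. They were taken as all probe sets annotated to exactly 1 of these symbols, which gave 1 probe set for each, 6 of the 12393 genes with such a probe set. The rule itself uses no measured value, but these genes were picked with earlier results of the same data known. A further probe set is annotated to both Chil3 and Chil4 and is described beside them without being counted.

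Left lungs of 16 mice were profiled on Affymetrix arrays, 1 mouse per array, and the values below are log2 of the intensities the authors made with RMA (robust multi-array averaging). There were 4 groups of 4 mice, each with 2 males and 2 females (M1, M2, F1 and F2), with an average age of 14 weeks. They were adiponectin-deficient mice after 72 h in ozone at 0.3 ppm, wildtype C57BL/6 mice after the same ozone, deficient mice in room air, and wildtype mice in room air, and the background strain of the deficient mice is also given as C57BL/6. Adiponectin is a hormone of fat cells, ozone is an oxidant air pollutant, and the design asks how both bear on the lung.

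Macrophages exposed to interleukin 4 or 13 take on a state called alternative activation, in which the transcription factor STAT6 turns on a set of genes used to recognise it in mice. Retnla encodes a small secreted protein also called RELM alpha or FIZZ1, which airway and alveolar epithelium make too. Chil3 (Ym1) and Chil4 (Ym2) encode secreted chitinase-like proteins that bind sugars without cutting chitin, Chil1 encodes a related protein also called BRP-39, Arg1 encodes the arginase that competes with nitric oxide synthase for arginine, and Mrc1 encodes the mannose receptor, which is also made by resident lung macrophages and some endothelium.

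Median intensities per array were 146 to 154, and 4 arrays per group set the precision. Adipoq, which encodes adiponectin, was lower in deficient mice, at 6.68 ± 0.90 against 8.48 ± 1.35 in wildtype mice (SD, n = 8 each, exact permutation p = 0.00420, two-sided). The genotypes overlapped in air, where deficient air F2 read 8.82. By exposure the exact permutation p was 0.0286 in ozone and 0.143 in air (n = 4 each), so the difference did not pass in air alone. The labels do not name the part of Adipoq that was deleted. The lung label was met by surfactant genes such as Sftpc, which read 14.51 to 14.62 on all 16 arrays. On 3 air arrays, called the marker-rich arrays below, genes of another tissue were high: 10 fat markers averaged 9.28 on deficient air F2 and 9.59 on wildtype air F1, against 6.96 to 7.78 on the other 14 arrays, and markers of squamous epithelium and muscle were high on deficient air M2. The free text of wildtype ozone F1 names room air where its other fields name ozone. In whole lung, fewer cells of a type and less RNA per cell cannot be told apart.

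Retnla (chr16:48842609-48844461 on GRCm38.p6, as are all coordinates here) was more than 6-fold higher after ozone in both genotypes. Retnla stood at 13.24, 13.44, 13.52 and 13.68 log2 intensity in deficient ozone, against 10.27, 10.86, 10.89 and 11.12 in deficient air, where values run from M1 and M2 to F1 and F2. In wildtype ozone it stood at 13.22, 13.12, 13.61 and 13.36, against 9.86, 10.51, 10.69 and 11.19 in wildtype air. The lowest ozone array lay almost 2 log2 units above the highest air array, so the exposures did not overlap, and the air arrays were the more scattered, with an SD of 0.36 in deficient air and 0.55 in wildtype air against 0.19 in deficient ozone and 0.21 in wildtype ozone. The difference was 2.69 ± 0.16 (SE) in deficient mice, 6.43-fold with a 95% confidence interval of 5.05 to 8.19 (limma adjusted p = 4.37e-08). It was 2.76 ± 0.16 in wildtype mice, 6.79-fold with an interval of 5.33 to 8.64 (limma adjusted p = 5.45e-08). Among the rises of all 12393 genes this one had rank 11 in deficient mice and rank 4 in wildtype mice.

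Chil1 (chr1:134182156-134190031), the chitinase-like gene whose protein is found in lung epithelium as well as in macrophages, rose too, by a smaller step from a high level. It read 12.99, 12.81, 12.72 and 12.98 in deficient ozone, against 12.03, 11.91, 12.36 and 12.39 in deficient air. In wildtype ozone it read 12.72, 12.50, 12.85 and 12.65, against 12.22, 12.16, 11.89 and 12.07 in wildtype air. In each genotype every ozone array lay above every air array, as for Retnla. The share of all probe sets that separate the exposures in this way was not counted. The rise was 0.70 ± 0.11, or 1.63-fold, in deficient mice (limma adjusted p = 0.000301) and 0.60 ± 0.11, or 1.51-fold, in wildtype mice (limma adjusted p = 0.000913). Its rank among the rises of all genes was 294 in deficient mice and 344 in wildtype mice.

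Thus 2 of the 6 genes were called after ozone in each genotype, both higher. Over all probe sets 29.3% were called in deficient mice and 36.3% in wildtype mice, so the number of these genes called is close to the background. The other 4 genes did not pass in either genotype.

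**Figure D1:**
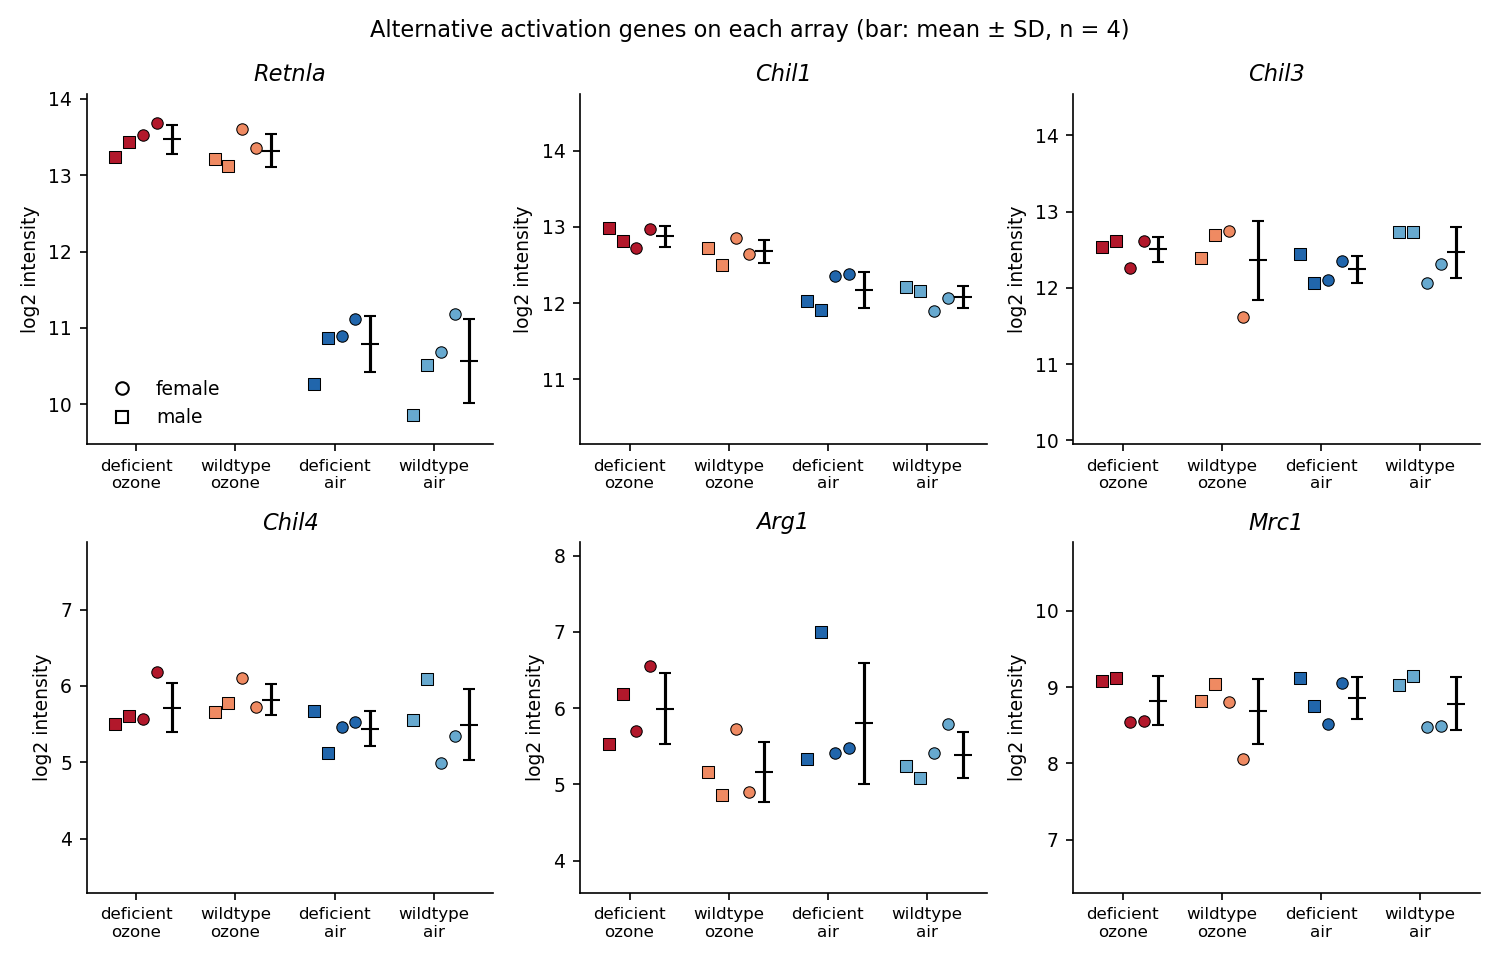
Log2 intensity of the 6 genes on each of the 16 arrays, with squares for males, circles for females, and the mean ± SD of each group of 4 beside its points; every panel spans the same number of log2 units. Retnla separates the exposures by the widest gap and Chil1 by a smaller one, while the ozone and air arrays of Chil3, Chil4, Arg1 and Mrc1 overlap.

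The stretch just before the Retnla start site is shown because it holds a match to the spaced palindrome to which STAT6 binds. The 250 bases upstream of the annotated start, from RefSeq on GRCm38.p6, are chr16:48842359-48842608 on the plus strand, and the capitals mark the palindrome, TTC and GAA with 4 bases between them, and the TATA box motif TATAAA.
Retnla: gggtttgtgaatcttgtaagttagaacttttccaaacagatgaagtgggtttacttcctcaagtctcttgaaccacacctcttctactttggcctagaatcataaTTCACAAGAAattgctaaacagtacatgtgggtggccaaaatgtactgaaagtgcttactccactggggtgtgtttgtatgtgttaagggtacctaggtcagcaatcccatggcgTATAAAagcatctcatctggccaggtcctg
The palindrome lies 145 to 136 bases before the start and the TATAAA 30 to 25 bases before it. Searched on both strands in the same stretch of 32851 RefSeq promoters, the palindrome occurs in 5.85% and TATAAA in 12.4%. The palindrome with 1 base fewer between its arms, TTCNNNGAA, which STAT proteins also bind, occurs in 7.02% of promoters and not in this window. Neither palindrome nor TATAAA was found in the Chil1 window or in that of Mrc1, and these matches are a description of letters only. Arg1 has no sequence shown here.

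Chil3 (chr3:106147554-106167564), one of the most abundant secreted products of mouse alveolar macrophages, did not pass the test for ozone. Its arrays read 12.54, 12.61, 12.26 and 12.61 in deficient ozone, against 12.44, 12.07, 12.10 and 12.35 in deficient air. They read 12.39, 12.69, 12.74 and 11.61 in wildtype ozone, against 12.74, 12.74, 12.06 and 12.32 in wildtype air. The groups overlapped, and wildtype ozone F2 had the lowest value of all 16 arrays. The difference was 0.26 ± 0.19 in deficient mice (95% interval -0.15 to 0.67, limma adjusted p = 0.336) and -0.10 ± 0.19 in wildtype mice (-0.51 to 0.30, limma adjusted p = 0.707). Without wildtype ozone F2 the wildtype difference was 0.12 (limma adjusted p = 0.577).

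Chil4 (chr3:106201491-106219479) was dim: the mean of its probe set exceeded that of 28.1% of the probe sets tested, and how far it stood above background is unknown, since no detection calls were used here. It read 5.50, 5.61, 5.56 and 6.19 in deficient ozone, against 5.67, 5.12, 5.46 and 5.52 in deficient air. It read 5.65, 5.78, 6.11 and 5.73 in wildtype ozone, against 5.55, 6.09, 4.99 and 5.34 in wildtype air. The groups overlapped in both genotypes. The difference was 0.27 ± 0.21 in deficient mice (limma adjusted p = 0.357) and 0.33 ± 0.21 in wildtype mice (limma adjusted p = 0.236). The wildtype value passed in females alone, at 0.76 (limma adjusted p = 0.0436), where it was -0.10 in males alone, and it passed without wildtype air M2, at 0.54 (limma adjusted p = 0.0356).

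The probe set annotated to both Chil3 and Chil4 was bright and followed Chil3. It read 11.99, 11.83, 11.57 and 11.76 in deficient ozone, against 11.47, 11.05, 10.91 and 11.49 in deficient air. In wildtype ozone it read 11.87, 12.29, 12.27 and 10.18, against 12.37, 12.18, 11.11 and 11.13 in wildtype air. The deficient groups did not overlap and the wildtype groups did, with wildtype ozone F2 again lowest. Neither difference passed, at 0.56 ± 0.34 in deficient mice (limma adjusted p = 0.242) and -0.05 ± 0.34 in wildtype mice (limma adjusted p = 0.931). Signal from the 2 genes cannot be told apart on this probe set.

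Chil3 and Chil4 are neighbours on chromosome 3, with 33926 bases between them, and their upstream stretches are shown because they are nearly the same. From RefSeq on GRCm38.p6 these are chr3:106167565-106167814 and chr3:106219480-106219729, both on the minus strand and printed in the direction of transcription, with TTCNNNGAA and TATAAA in capitals.
Chil3: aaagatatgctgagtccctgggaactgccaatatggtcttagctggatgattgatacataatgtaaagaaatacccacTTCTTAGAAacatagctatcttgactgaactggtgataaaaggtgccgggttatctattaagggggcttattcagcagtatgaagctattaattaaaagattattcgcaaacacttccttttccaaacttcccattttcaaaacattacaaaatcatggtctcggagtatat
Chil4: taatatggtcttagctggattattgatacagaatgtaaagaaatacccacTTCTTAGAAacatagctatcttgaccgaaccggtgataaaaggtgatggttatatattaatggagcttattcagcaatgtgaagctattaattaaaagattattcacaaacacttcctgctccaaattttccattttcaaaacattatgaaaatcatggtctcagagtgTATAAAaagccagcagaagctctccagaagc
Aligned with free ends, 201 of 223 columns were identical, which is 90.1%. Both hold the same TTCTTAGAA, 172 to 164 bases before the annotated start in Chil3 and 200 to 192 before it in Chil4. Only the Chil4 window holds TATAAA, but the Chil3 window ends partway into the stretch that aligns with that TATAAA. Whether Chil3 has the motif there cannot be seen in the window. Neither window holds the wider palindrome found before Retnla.

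Arg1 (chr10:24915207-24927470), the arginase of alternatively activated macrophages, was as dim as Chil4, with a mean above that of 27.6% of probe sets. It read 5.53, 6.19, 5.69 and 6.55 in deficient ozone, against 5.33, 6.99, 5.41 and 5.47 in deficient air. It read 5.16, 4.86, 5.73 and 4.90 in wildtype ozone, against 5.24, 5.08, 5.41 and 5.79 in wildtype air. The highest of all 16 values was that of deficient air M2, and the groups overlapped. The ozone difference was 0.19 ± 0.33 in deficient mice (limma adjusted p = 0.713) and -0.22 ± 0.33 in wildtype mice (limma adjusted p = 0.642). Deficient air M2 is the array on which the 12 markers of squamous epithelium and skeletal muscle averaged 10.10, against 5.52 to 5.54 on the other 3 of its group. Their summed intensity there was 34784, and it was 757 to 1671 on the arrays of the other groups. Without that array the difference in deficient mice was 0.64 and passed (limma adjusted p = 0.0400), and without the 3 marker-rich arrays it was 0.62 and did not pass (limma adjusted p = 0.107). The part of these markers in the Arg1 values was not tested.

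Mrc1 (chr2:14229414-14332023), the mannose receptor gene, was at a middle level and did not pass for ozone. It read 9.09, 9.12, 8.55 and 8.55 in deficient ozone, against 9.12, 8.76, 8.52 and 9.05 in deficient air. It read 8.82, 9.05, 8.81 and 8.06 in wildtype ozone, against 9.03, 9.14, 8.47 and 8.49 in wildtype air. The groups overlapped, and wildtype ozone F2 was the lowest array, as for Chil3. The difference was -0.04 ± 0.15 in deficient mice (95% interval -0.36 to 0.29, limma adjusted p = 0.880) and -0.10 ± 0.15 in wildtype mice (-0.42 to 0.22, limma adjusted p = 0.643). As folds, the intervals ran from 0.778 to 1.22 in deficient mice and from 0.746 to 1.17 in wildtype mice.

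Markers of macrophages, eosinophils and lung epithelium stood as follows beside the ozone rise of Retnla and Chil1. Over all 12393 genes 15.6% rose and 14.5% fell in deficient mice, and 19.5% rose and 17.0% fell in wildtype mice. Of 12 general macrophage markers, 2 rose and 2 fell in deficient mice, and 2 rose and 1 fell in wildtype mice, which is close to those shares. Their summed intensity was 29366 to 34586 in deficient ozone against 28887 to 31507 in deficient air, and 28545 to 35819 in wildtype ozone against 27928 to 34387 in wildtype air. Of 9 interstitial macrophage and monocyte markers, 1 rose and 1 fell in deficient mice, and 2 fell in wildtype mice. Without the marker-rich arrays 3 of the 9 rose and none fell in deficient mice, where 11.9% of all genes rose and 12.5% fell. In wildtype mice 1 rose and 2 fell in that fit, where 18.4% of all genes rose and 16.1% fell.

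The 9 alveolar macrophage markers gave a different picture by sum and by mean. In deficient mice 1 rose and 3 fell, with a median difference of -0.23, and in wildtype mice 3 fell, with a median of -0.37. Their mean log2 intensity was 7.71 to 8.02 in deficient ozone against 7.99 to 8.47 in deficient air, and 7.53 to 7.90 in wildtype ozone against 7.91 to 8.35 in wildtype air, so the wildtype groups did not overlap. The sum, which is set by the brightest markers, was 4303 to 4955 in deficient ozone against 3735 to 4452 in deficient air, and 3675 to 4424 in wildtype ozone against 3650 to 4952 in wildtype air. Without the marker-rich arrays 4 of the 9 fell and none rose in either genotype. In that fit 12.5% of all genes fell in deficient and 16.1% in wildtype mice. With deficient ozone F2 left out too, 2 fell in deficient and 4 in wildtype mice, beside 9.27% and 16.6% of all genes. The calls of Fabp1 and Pparg in deficient mice and of Krt79 in wildtype mice were each lost without some single arrays. Of the 7 eosinophil markers, a cell type that makes interleukin 4, 1 fell in deficient mice (median -0.01), and 1 rose and 1 fell in wildtype mice (median 0.06). Their sum was 237 to 242 in deficient ozone against 260 to 294 in deficient air, and 225 to 258 in wildtype ozone against 254 to 328 in wildtype air. The one that fell in both was Siglecf, which is also an alveolar macrophage marker. The 7 eosinophil markers were dim, with a mean log2 intensity of 4.82 to 5.06 on female arrays. Eif2s3y, a transcript that females lack and that was picked later, read 4.11 to 4.46 on those arrays. How far the eosinophil markers stood above background is unknown, so their calls and sums do not bound a change in eosinophils.

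Epithelial markers are given because Retnla and Chil1 are made in epithelium too. Of 9 type 2 alveolar markers, 2 rose and none fell in each genotype, with a median of 0.17 in deficient and 0.14 in wildtype mice. Their sum was 79916 to 93032 in deficient ozone against 73901 to 81613 in deficient air, and 89677 to 93461 in wildtype ozone against 78844 to 89216 in wildtype air, where the groups did not overlap. Without the marker-rich arrays 2 of these 9 rose in deficient mice and none in wildtype mice. Of 13 club and goblet markers, 1 rose and 1 fell in deficient mice (median 0.03), and 2 rose in wildtype mice (median 0.13). Without the marker-rich arrays none of the 13 was called in deficient mice and 1 rose in wildtype mice. RMA gives no zeros, so no marker stands at 0, and the part of cell numbers in the rise of Retnla and Chil1 was not tested.

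Between the genotypes none of the 6 genes passed, in ozone or in air, and the difference of the ozone effect between genotypes passed for none. In ozone limma called 3 of 22626 probe sets (0.0133%, with 2472 at an unadjusted p under 0.05), in air 2 (0.00884%, with 1564), and for the difference of the ozone effect none (0%, with 1121). Retnla was 0.14 ± 0.16 higher in deficient ozone than in wildtype ozone (95% interval -0.20 to 0.49, limma adjusted p = 0.786) and 0.22 ± 0.16 higher in deficient air than in wildtype air (-0.13 to 0.57, limma adjusted p = 0.806). Its ozone effect differed between the genotypes by -0.08, with an interval of -0.57 to 0.42, which is 0.674-fold to 1.33-fold. For Chil1 the genotype difference was 0.20 ± 0.11 in ozone (-0.04 to 0.44) and 0.09 ± 0.11 in air (-0.15 to 0.33).

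Arg1 had the widest difference of the 6 genes between the genotypes in ozone, 0.83 ± 0.33 or 1.78-fold, with an interval of 0.12 to 1.54. Its unadjusted p was 0.0254 in the limma fit and its adjusted p 0.385, so it failed the correction over all probe sets. Deficient ozone M2 and F2 lay above every wildtype ozone array, and M1 and F1 did not, so the groups overlapped. In air the Arg1 difference was 0.42 ± 0.33, and it was -0.06 without the 3 marker-rich arrays. For Chil3, Chil4 and Mrc1 the genotype differences lay between -0.10 and 0.14 in ozone and between -0.22 and 0.08 in air, each with an interval that holds 0.

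**Figure D2:**
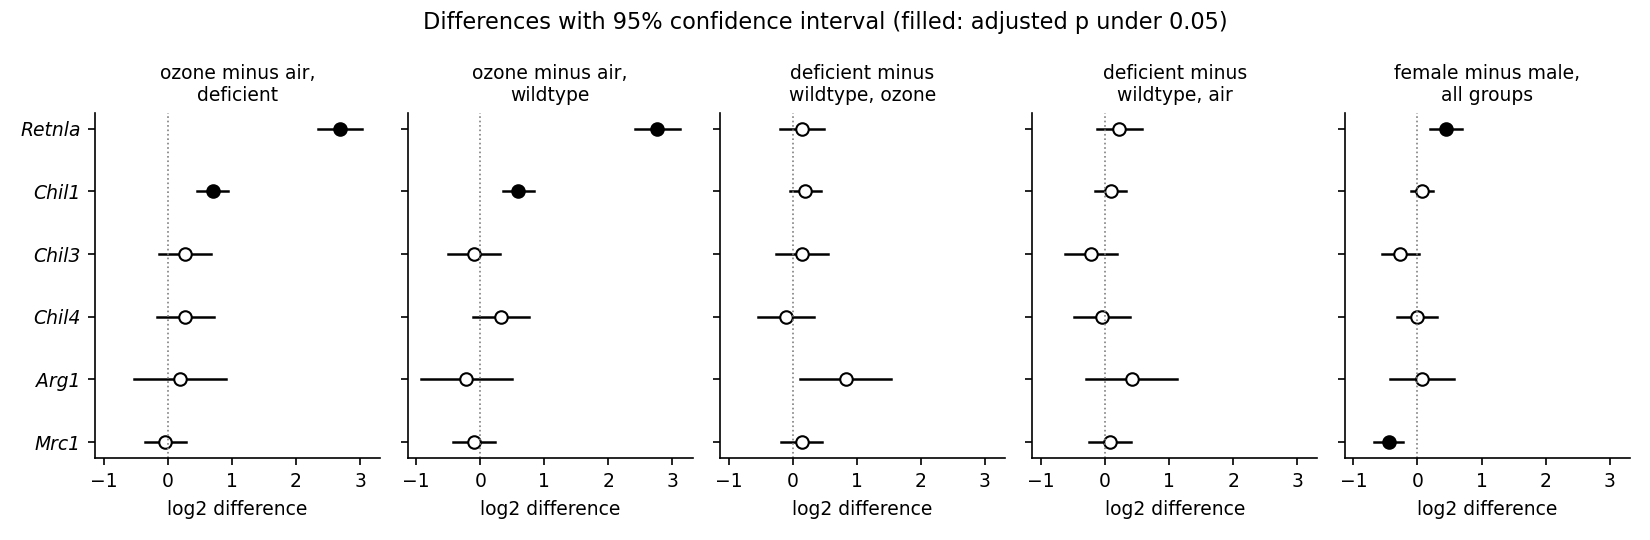
Log2 difference of each gene in 5 comparisons, with a line for the 95% confidence interval; filled points have a limma adjusted p under 0.05. Retnla and Chil1 are filled for ozone in both genotypes, no gene is filled between genotypes, and Retnla (higher) and Mrc1 (lower) are filled for female minus male.

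Females and males differed in Retnla and Mrc1, in opposite directions. The difference was averaged over the 4 groups. Retnla averaged 12.26 in females and 11.81 in males, a difference of 0.44 ± 0.12 or 1.36-fold (limma adjusted p = 0.0278), and in 4 of 4 groups both females lay above both males. Mrc1 averaged 8.56 in females and 9.01 in males, a difference of -0.45 ± 0.11 or 0.732-fold (limma adjusted p = 0.0182), and in 3 of 4 groups both females lay below both males. These are 2 of the 6 genes, while 9.18% of all probe sets were called. The share of all probe sets that separate the sexes in as many groups was not counted. The Retnla call was lost without deficient air M1 (limma adjusted p = 0.0545) and without deficient ozone M1 (limma adjusted p = 0.0510). It was also lost without the marker-rich arrays and deficient ozone F2 (limma adjusted p = 0.0635), where the difference was 0.50.

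Chil3 stood at -0.27 ± 0.14 in females minus males (limma adjusted p = 0.245), the probe set it shares with Chil4 at -0.58 ± 0.24 (limma adjusted p = 0.151), and Chil1, Chil4 and Arg1 between -0.01 and 0.07. Of the 12 general macrophage markers 3 were lower in females and none higher, beside 9.18% of all probe sets called in either direction, and their summed intensity was 27928 to 31507 in females against 28887 to 35819 in males. Of the 13 markers of club and goblet cells of the airway 5 were higher in females and none lower, with sums of 66883 to 78173 in females against 59991 to 71051 in males. The calls of the macrophage markers Lyz2 and C5ar1 and the airway markers Scgb3a1, Bpifb1 and Clca1 were each lost without some single arrays. The part of macrophages and of club and goblet cells in the sex differences of Mrc1 and Retnla was not tested. No gene of the 6 had an ozone effect that passed a test of difference between the sexes, and 0.00442% of all probe sets did. The widest was that of Chil4, at 0.54 ± 0.24 (unadjusted p = 0.0433, adjusted p = 0.589 in the limma fit).

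The 6 genes did not vary as a block from array to array. Over the 16 arrays Retnla and Chil1 had r = 0.89, but the arrays fall into an ozone and an air cluster that both genes separate, and after the group means and sex were taken out r was -0.08. Chil3 and Mrc1 varied together within the groups, with r = 0.85 after group means and sex were taken out, and Chil3 with the probe set it shares with Chil4 with r = 0.95. The mean of the general macrophage markers went with Chil3 at r = 0.71 and with Mrc1 at r = 0.62 on that scale, and with Retnla at r = -0.28. These are descriptions over 16 arrays of the same tissue, and wildtype ozone F2 lies at the low end for Chil3, Mrc1 and the macrophage markers. On that array Chil3 lay 0.75 below the mean of its group, Mrc1 0.62, the shared probe set 1.48 and the mean of the macrophage markers 0.30, while Retnla lay 0.03 above it.

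**Figure D3:**
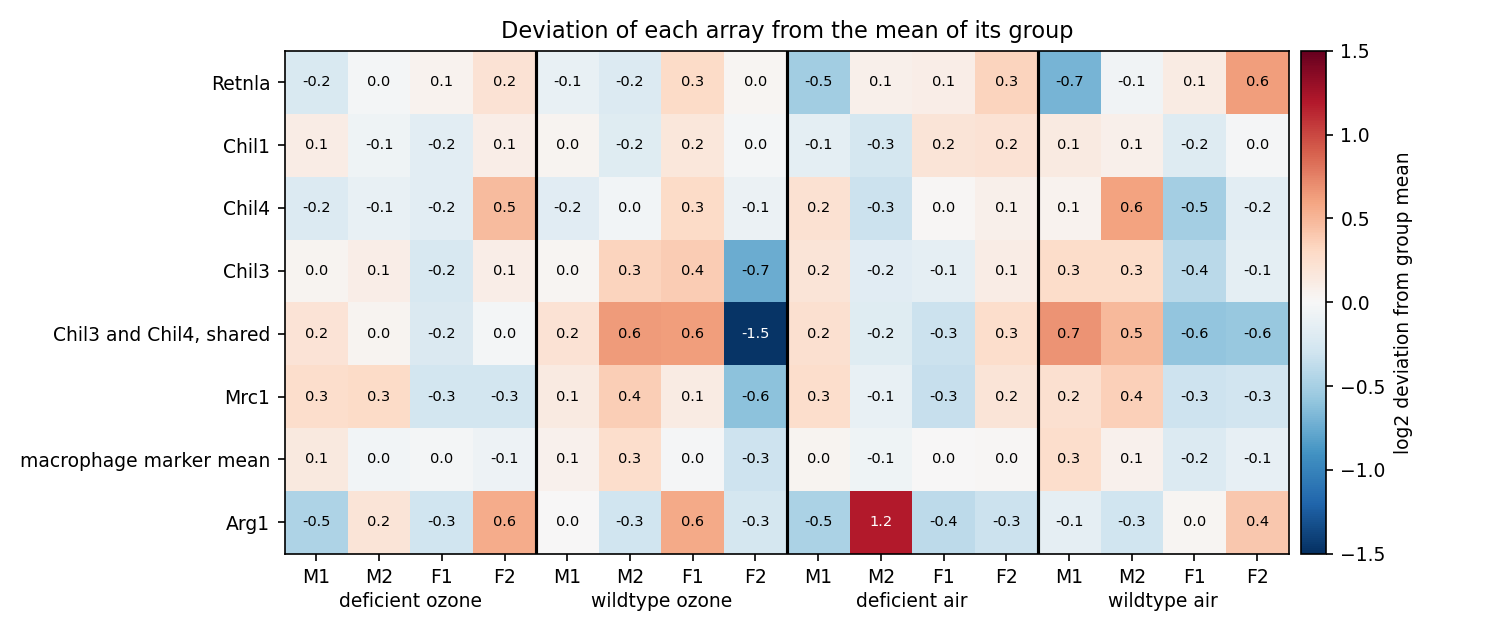
Deviation of each array from the mean of its own group, in log2 units, for the 6 genes, the probe set shared by Chil3 and Chil4 and the mean of 12 macrophage markers. Chil3, the shared probe set, Mrc1 and the macrophage markers are all low on wildtype ozone F2, and Arg1 is high on deficient air M2.

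The genes most like each member were taken by Pearson r of log2 intensity. For Retnla over all 16 arrays these were Psmb6, a proteasome subunit, at r = 0.98, and the cell division genes Anln, Cdc20, Top2a and Ccnf, at r = 0.98 each. For Chil1 they were Stmn1 (r = 0.97), the replication helicase subunit Mcm7, Tceal9, Cks2 and Itih4 (r = 0.94 each). These r values include the difference between ozone and air, which Retnla and Chil1 separate. Whether the genes of both sets separate the exposures as fully was not tested. For Chil3 they were Plet1 (r = 0.82), Mrc1, Pikfyve, the lysosomal macrophage protein Cd68 and the protease Ctss (r = 0.76 to 0.77). After group means and sex were taken out, the gene most like Mrc1 was Mgl2, a lectin of macrophages and dendritic cells (r = 0.91), and that most like Arg1 was the metalloproteinase Mmp10 (r = 0.94), followed by Slc7a9, Spn-ps, Tmod4 and the hair keratin Krt32 (r = 0.88 to 0.91). Arg1 was highest on deficient air M2, and without that array r was 0.89 for Mmp10, 0.85 for Spn-ps, 0.77 for Slc7a9, 0.65 for Krt32 and 0.60 for Tmod4 (n = 15 arrays).

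Relatives of the 6 genes were taken by family. Retnlb, the other resistin-like gene measured beside Retn, rose by 0.39 ± 0.11 in deficient mice and 0.33 ± 0.11 in wildtype mice (limma adjusted p = 0.0116 and 0.0252). Both Retnlb calls were lost without the marker-rich arrays and deficient ozone F2 (limma adjusted p = 0.103 in deficient and 0.0507 in wildtype mice), and in wildtype mice also without wildtype air M2 (0.0951) or F2 (0.0597), or wildtype ozone M1 (0.0701) or F1 (0.0858). Retn, resistin itself, a gene of fat cells in mice, stood at -1.28 ± 0.56 and -0.50 ± 0.56 and did not pass (limma adjusted p = 0.102 and 0.517). The summed intensity of Retn and Retnlb was 1638 on wildtype air F1 and 1884 on deficient air F2, where fat markers were high. On the other arrays it was 165 to 370. Without the marker-rich arrays the median difference of these 2 genes went from -0.45 to -0.07 in deficient and from -0.09 to 0.25 in wildtype mice.

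Of 4 other genes with chitinase-like domains, Chid1 rose by 0.45 ± 0.09 in deficient and 0.37 ± 0.09 in wildtype mice. Ctbs, a lysosomal chitobiase, fell by 0.34 in deficient mice (limma adjusted p = 0.00482) and by 0.54 in wildtype mice (limma adjusted p = 0.000153), and its deficient value missed the threshold without the marker-rich arrays and deficient ozone F2 (limma adjusted p = 0.0555). The acidic chitinase Chia1 and the oviductal glycoprotein Ovgp1 did not pass.

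Around arginine, 1 of 9 measured genes rose in deficient mice and 2 of 9 in wildtype mice, and none fell, where 15.6% of all genes rose in deficient and 19.5% in wildtype mice. Without the marker-rich arrays 2 of the 9 rose in deficient mice and 4 in wildtype mice, where 11.9% and 18.4% of all genes rose. Odc1, which makes polyamine precursors from the product of arginase, rose by 0.29 ± 0.06 in deficient and 0.27 ± 0.06 in wildtype mice. The arginine transporter Slc7a1 rose by 0.29 ± 0.10 in wildtype mice (limma adjusted p = 0.0384) and stood at 0.22 in deficient mice (limma adjusted p = 0.131), where it passed without the marker-rich arrays (0.32, limma adjusted p = 0.0453). The wildtype Slc7a1 call was lost without wildtype air M1, M2 or F2 or wildtype ozone M1, F1 or F2, with limma adjusted p between 0.0553 and 0.125. Arg2 and Nos2 are given for their roles and were picked after their values were seen. Arg2, the mitochondrial arginase, stood at 0.53 ± 0.35 in deficient and 0.30 ± 0.35 in wildtype mice and did not pass. Nos2, the inducible nitric oxide synthase, stood at 0.14 in deficient and 0.21 in wildtype mice and did not pass either, but it passed in wildtype mice without the marker-rich arrays (0.31, limma adjusted p = 0.00872).

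Of the 3 other mannose receptor family genes, Mrc2, a collagen receptor of fibroblasts and other cells, rose by 1.05 ± 0.13 in deficient and 1.15 ± 0.13 in wildtype mice (limma adjusted p = 3.95e-05 and 2.05e-05). Pla2r1 fell by 0.33 in deficient mice and by 0.28 in wildtype mice, and the wildtype call was lost without wildtype air F2 (limma adjusted p = 0.0664) or wildtype ozone F2 (0.0637). Ly75 did not pass.

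The pathway that acts on these genes was followed through 18 measured genes of interleukin 4 and 13 signalling and its inducers. In deficient mice 5 rose and 3 fell, with a median difference of 0.11, where 15.6% of all 12393 genes rose, 14.5% fell and the median was 0.01. In wildtype mice 7 rose and 2 fell, with a median of 0.11, where 19.5% of all genes rose, 17.0% fell and the median was 0.03. Il33, an epithelial alarmin that drives interleukin 13 release, rose by 1.12 ± 0.15 in deficient and 1.16 ± 0.15 in wildtype mice. Cebpb, a transcription factor used by Arg1 and other macrophage genes, rose by 1.27 ± 0.17 and 1.10 ± 0.17, the receptor kinase Jak3 by 0.77 ± 0.09 and 0.57 ± 0.09, and the feedback inhibitor Socs1 by 0.61 ± 0.08 and 0.41 ± 0.08. Tslp, another epithelial inducer of this pathway, fell by 0.49 in deficient and by 0.60 in wildtype mice.

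The receptor and the transcription factor of the pathway were singled out after their values were seen. Il4ra, the receptor chain shared by both interleukins, rose by 0.67 ± 0.13 in deficient and 0.62 ± 0.13 in wildtype mice. Stat6 fell by 0.27 in deficient and by 0.29 in wildtype mice, and its deficient value missed the threshold without the marker-rich arrays and deficient ozone F2 (limma adjusted p = 0.0674). Il4 stood at 0.04 ± 0.07 in deficient mice and rose by 0.21 ± 0.07 in wildtype mice, a call lost without wildtype air M2 or wildtype ozone M1, M2 or F2 (limma adjusted p between 0.0570 and 0.0813). Il13 did not pass in either. Without the marker-rich arrays and deficient ozone F2, 5 of the 18 genes rose and 1 fell in deficient mice, where 9.88% of all genes rose and 9.27% fell. In that fit 7 rose and 2 fell in wildtype mice, where 19.0% of all genes rose and 16.6% fell.

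Of 25 other genes of alternative activation, 7 rose and 2 fell in deficient mice (median 0.09), where 15.6% of all genes rose and 14.5% fell. In wildtype mice 7 rose and 3 fell (median 0.13), where 19.5% of all genes rose and 17.0% fell. The chemokines Ccl17 and Ccl22, which attract T cells, rose in both, Ccl17 by 2.00 ± 0.24 in deficient and 1.74 ± 0.24 in wildtype mice and Ccl22 by 1.14 ± 0.12 and 0.65 ± 0.12. The transglutaminase Tgm2 rose by 0.34 ± 0.07 in deficient and 0.20 ± 0.07 in wildtype mice, and the wildtype call was lost without wildtype air M2 or F2 or wildtype ozone M1, F1 or F2 (limma adjusted p between 0.0673 and 0.103). Slamf1 fell by 0.56 in deficient and by 0.29 in wildtype mice. The haemoglobin scavenger receptor Cd163 fell by 0.85 in deficient and by 0.98 in wildtype mice, and its deficient value was -0.59 without deficient air F2 (limma adjusted p = 0.0509) and -0.50 without all the marker-rich arrays (0.156). Socs2 fell by 0.50 in wildtype mice and stood at -0.32 in deficient mice. Without the marker-rich arrays 6 of the 25 genes rose and 1 fell in deficient mice, where 11.9% of all genes rose and 12.5% fell. In that fit 7 rose and 3 fell in wildtype mice, where 18.4% of all genes rose and 16.1% fell.

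Of 16 genes of classical activation, the state induced by interferon gamma, 3 rose and 1 fell in deficient mice (median 0.16). In wildtype mice 1 rose and 2 fell (median 0.06). Over all genes 15.6% rose and 14.5% fell in deficient mice, and 19.5% rose and 17.0% fell in wildtype mice. Il6 rose by 0.90 ± 0.19 in deficient mice and stood at 0.43 ± 0.19 in wildtype mice, where it passed without the marker-rich arrays and deficient ozone F2 (0.40, limma adjusted p = 0.00662). The chemokine Cxcl10 rose by 0.56 ± 0.14 and 0.44 ± 0.14. The Irf5 call was also lost without any of 5 single arrays and the Il12a call without any of 10. The wildtype value of Cxcl10 missed the threshold without the marker-rich arrays (limma adjusted p = 0.0543), as did those of Irf5 (0.38 ± 0.13) and Il12a (-0.20 ± 0.07) in deficient mice (0.0975 and 0.0879). Cxcl10 also lost its wildtype call without wildtype air M1 or F1 or wildtype ozone M1 or F1 (limma adjusted p between 0.0540 and 0.0774). In wildtype mice Gbp2 and Ptgs2 fell by 0.79 and by 0.53, and the Ptgs2 call was lost without any of 10 single arrays, at -0.38 without wildtype air F2 (limma adjusted p = 0.145). None of the genes of these 3 lists passed between the genotypes in ozone or in air.

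**Figure D4:**
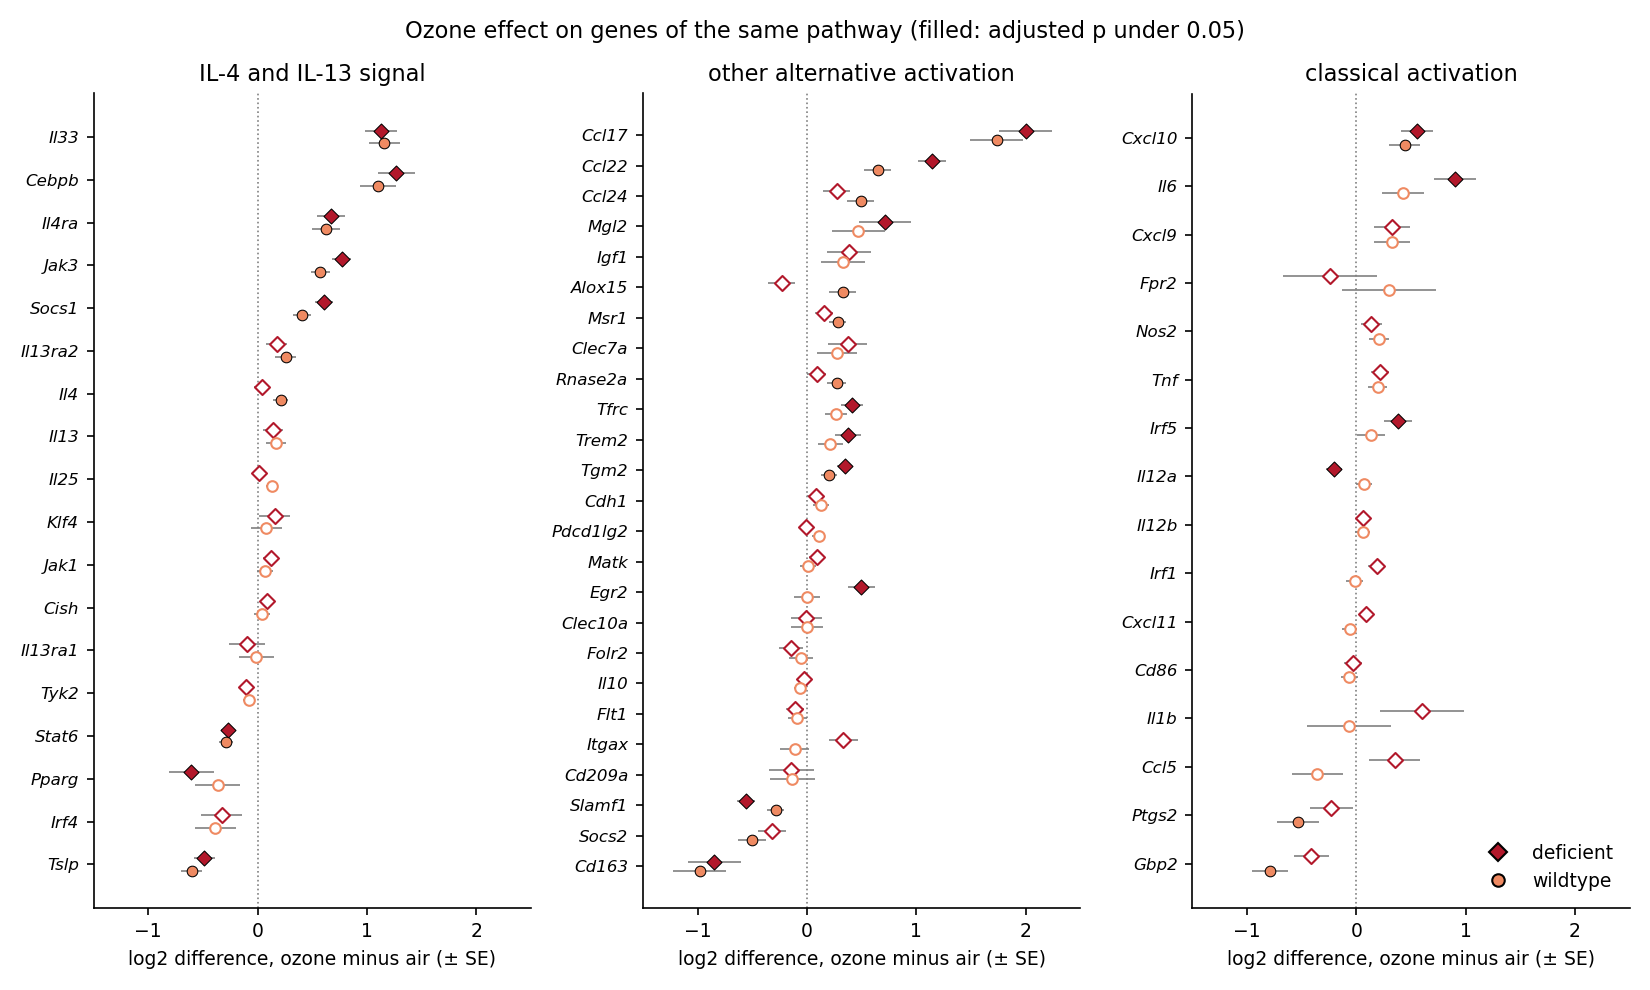
Log2 difference between ozone and air (± SE) of the measured genes of interleukin 4 and 13 signalling, of other alternative activation genes and of classical activation, with diamonds for deficient and circles for wildtype mice, filled where the limma adjusted p is under 0.05. Ccl17, Ccl22, Il33, Cebpb, Jak3 and Il4ra lie to the right of 0 in both genotypes, and Cd163, Tslp, Slamf1 and Stat6 to the left.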

How the data were processed

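The file the authors deposited gives each probe set's intensity on each of the 16 arrays after RMA, which the submitters' processing notes name without a version. These intensities were linear, from 11.1 to 26974.7, so log2 was taken; a shift shared by all RNA would not be visible after normalization between arrays. Of 22690 probe sets, 64 controls were left out. Symbols came from the platform annotation, which can be old: 20380 probe sets had 1 symbol, 691 several and 1555 none. Each other gene was represented by its brightest probe set over all arrays. All 22626 probe sets were fitted with limma 3.58.1 (lmFit, eBayes) in R 4.3.3 on group and sex. The ozone-by-sex term came from a model that split every group by sex. Calls needed a limma p under 0.05 after Benjamini-Hochberg adjustment; the fit was tested on simulated data. Adipoq was tested by exact permutation. The labels do not say that mice were matched across groups. Replicate numbers were to count as pairs only if every same-numbered pair of arrays had a correlation of deviations over 0.1. Of 24 pairs 21 did, and same-numbered arrays share sex, so the fit has sex as a term and the replicate block is an alternative. Members and lists were chosen with earlier results of these data known. Named genes are the members, Adipoq, some cell type markers and up to 4 of smallest p per list and comparison. Called relatives and the 5 genes most like each member are named too. Others are said to be picked later. Promoters were read with Python 3.11.15, pandas 2.3.3 and biopython 1.88, and figures drawn with matplotlib 3.10.9. As alternatives the values were quantile normalized again or shifted to 1 median, the dimmest 25% of probe sets were dropped, and genes were taken by 1 probe set or by the mean of theirs. The fit was run with a robust intensity trend, with array weights, at stricter thresholds, without sex, with a replicate block, on the compared groups alone, on each sex alone and with each array left out. Fits without 3 air arrays, and without those and deficient ozone F2, were added after the data were seen.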

Additional observations from a re-analysis of the deposited data

Results flagged for a closer look

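Dixon's criterion was applied in 56 groups of 4 arrays, over the 6 genes, the shared probe set, 6 marker lists and Adipoq. By it 6 values stood apart from the other 3 of their group (chance alone flags about 1 in 20 such groups). Deficient air M2 was flagged for both Arg1 and a marker list. Chil4 was 6.19 on deficient ozone F2, against 5.50 to 5.61 on the others. Arg1 was 6.99 on deficient air M2, against 5.33 to 5.47. The mean of 12 markers of squamous epithelium and skeletal muscle was 10.10 on that same array, against 5.52 to 5.54. The mean of 10 fat markers was 9.28 on deficient air F2, against 7.31 to 7.62, and 7.73 on wildtype ozone F2, against 7.39 to 7.42. The mean of 10 neutrophil markers was 10.43 on wildtype ozone M2, against at most 7.07; Retnla on that array was 13.12, the lowest of the 8 ozone arrays, and Arg1 was 4.86, the lowest of all 16.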

How the results depend on the processing

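The rises of Retnla and Chil1 after ozone stayed called under all 32 alternatives in both genotypes, with Retnla between 2.58 and 2.90 in deficient and 2.54 and 2.98 in wildtype mice, and Chil1 between 0.47 and 0.93 and between 0.42 and 0.77. None of the 6 genes was called between genotypes under any alternative. Of 1278 recomputed differences 7 lost a call, 3 gained one (2 of Chil4, 1 of Arg1), no called value changed sign, and 69 that were called under neither setting did. The number of the 6 genes called between the sexes, 2, was 0 at an adjusted p under 0.01, 0 with a fold of at least 1.5, and 1 without the marker-rich arrays and deficient ozone F2; with single arrays left out it ranged from 1 to 2. With the replicate block, whose same-numbered arrays share sex, 2 genes were called for ozone in each genotype, as without it, and none between genotypes; same-numbered arrays correlated in their deviations at -0.04 to 0.41, and 7 of 16 arrays correlated best with their own number. The probe sets called between the genotypes in ozone, 3, ranged from 2 to 22. Chil4 and Arg1 were too dim for a change in them to be bounded against background.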
